A study of Mus musculus with 24 samples.

Results

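The genes that set the brake and the accelerator of the G1 phase, 10 in all, were followed in Lin-Sca-1+c-Kit+ (LSK) cells, the bone marrow fraction that holds the mouse hematopoietic stem and multipotent progenitor cells. They were the 3 inhibitors of the Cip/Kip family (Cdkn1a, Cdkn1b, Cdkn1c), 2 inhibitors of the INK4 family (Cdkn2c, Cdkn2d), the 3 D-type cyclins (Ccnd1, Ccnd2, Ccnd3) and the 2 kinases that these cyclins activate (Cdk4, Cdk6). Each was taken by its symbol from the table of read counts, and all 10 were found among its 24091 genes and passed the filter on low counts with 13520 genes in all.

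LSKs were sorted from the bone marrow of 24 mice, 6 per group with 3 females and 3 males each. The 4 groups were miR-142+/+ mice (WT), miR-142-/- mice (miR-142 KO, or KO), miR-142+/+ BCR-ABL mice (CP CML, the chronic phase model of chronic myelogenous leukemia) and miR-142-/- BCR-ABL mice (BC CML, the blast crisis model). The BCR-ABL mice were SCLtTA/BCR-ABL transgenics on the B6 background, in which withdrawal of tetracycline switches on BCR-ABL in cells that use the SCL promoter, and LSKs were taken 2 weeks after induction. The loss of miR-142 was germline, so every cell type of the KO and BC CML mice lacked it, and the leukemic groups were matched for age, gender and transgene level. Ages are not given in the sources used here. Library depth was between 16267965 and 24687077 assigned reads, and the primary transcript of Mir142 had 68 to 153 reads in every WT and CP CML library and 0 in all 12 libraries of both miR-142-/- groups. A count of 0 leaves room for up to 3 reads per library. The 6 LSK markers examined (Ly6a, Kit, Cd34, Flt3, Sox4 and Myb) were detected in each group, with summed levels of 3357 to 4789 CPM over the 24 libraries. Single markers moved within this sum. By the test used below, 2 rose and 2 fell in KO against WT, beside 36.3% of all tested genes called. In BC CML against CP CML 2 rose and 3 fell, beside 38.0%. The sum thus does not show that the groups held the same mix of cells.

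D-type cyclins rise when a resting cell receives mitogens, bind Cdk4 or Cdk6, and start the phosphorylation of the retinoblastoma protein that lets E2F factors switch on S phase genes. INK4 proteins bind Cdk4 and Cdk6 and keep the cyclin away, whereas the Cip/Kip proteins p21 (Cdkn1a), p27 (Cdkn1b) and p57 (Cdkn1c) bind the assembled cyclin and kinase pairs and block Cdk2 most strongly. In hematopoietic stem cells p57, p27 and p18 (Cdkn2c) are known as guards of quiescence, Ccnd2 and Cdk6 are needed for timely exit from it, and p21 is a classical target of p53.

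The 2 mature microRNAs missing from the KO and BC CML mice come from a hairpin on chromosome 11 (GRCm38.p6, plus strand), the 5p arm at chr11:87756867-87756887 and the 3p arm at chr11:87756903-87756925. They are shown because their absence defines the comparison, with the seed (bases 2 to 8) in capitals, as RefSeq gives them.
mmu-miR-142a-5p: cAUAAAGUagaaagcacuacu
mmu-miR-142a-3p: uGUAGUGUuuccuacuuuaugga
The DNA letters that pair with these seeds, ACTTTAT for the 5p arm and ACACTAC for the 3p arm, were searched on the transcript strand in the longest annotated 3′ UTR of each gene (GENCODE M21, GRCm38). They occurred in the 3′ UTRs of 15.8% and 6.97% of the 12612 tested genes with such a sequence, and in 0 of the 10 genes described here, although these include 3′ UTRs of 10217 bases (Cdk6) and 5173 bases (Ccnd2). This says only that the letters are not in these windows.

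Levels of different genes were compared per length, as TPM (counts divided by gene length and scaled to a common total in each library), within a group. In WT LSKs Cdk4 was the most abundant of the 10 with 962 ± 38.8 TPM (SD, n = 6), followed by Cdk6 with 425 ± 28.9 and Ccnd2 with 277 ± 29.1. Of the inhibitors, Cdkn1b led with 107 ± 10.2 TPM. Below it stood Cdkn2d with 58.6 ± 7.53, Cdkn1a with 56.0 ± 29.8 and Cdkn2c with 49.3 ± 6.22 TPM, whose spreads overlap. Ccnd3 had 75.7 ± 4.77 TPM and Ccnd1 37.2 ± 6.15 TPM. Cdkn1c was the rarest with 7.98 ± 2.31 TPM, and its raw counts were only 45 to 169 per library, so its values carry the most counting error. Values of 1 gene across groups are given below as CPM (counts scaled to a common library size, with library sizes set by TMM), and differences as log2 fold changes ± SE.

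**Figure D1:**
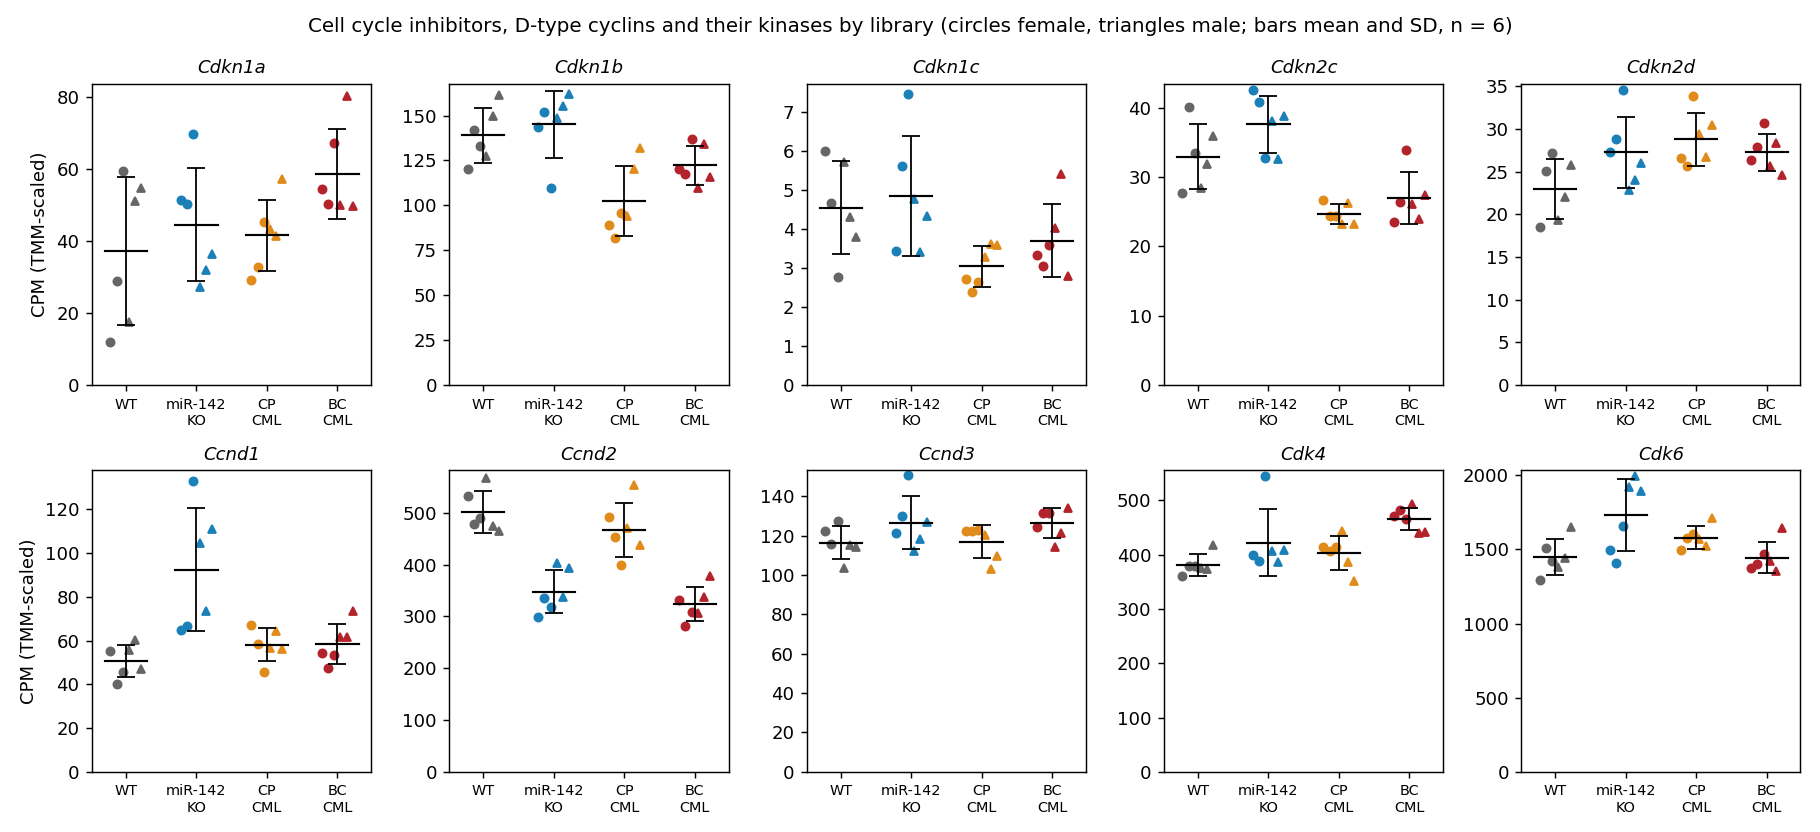
CPM of each of the 10 genes (vertical axes, linear from 0) in the 24 libraries, grouped along the horizontal axis, with circles for females and triangles for males and with the group mean and SD (n = 6). Ccnd2 sits lower in both groups without miR-142 and Ccnd1 sits higher in the miR-142 KO group.

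The blast crisis model was compared with the chronic phase model to learn what the loss of miR-142 changes in leukemic LSKs. Of the 10 genes, Ccnd2 fell and Cdk4 rose, and the other 8 did not pass the test (edgeR quasi-likelihood test, Benjamini-Hochberg adjusted p below 0.05). For comparison, 38.0% of all tested genes passed, a larger share than 2 of 10. Ccnd2 was the only 1 of the 10 whose CP CML and BC CML libraries did not overlap, against 20.7% of all tested genes. The same question was asked in normal LSKs by comparing miR-142 KO with WT. There Ccnd1 and Cdk6 rose and Ccnd2 fell, 3 of 10 genes beside 36.3% of all tested genes, and the groups of Ccnd1 and Ccnd2 did not overlap, beside 14.5% of all tested genes. These pairs of groups share no library.

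Ccnd2 encodes cyclin D2, the main D-type cyclin of these cells. Its WT libraries held 465 to 568 CPM with a median of 485, and the miR-142 KO libraries 299 to 403 with a median of 336. In CP CML the range was 398 to 553 CPM with a median of 462, and in BC CML 281 to 378 with a median of 321. Every library without miR-142 was thus below every library of its own miR-142+/+ counterpart, while the miR-142 KO and CP CML ranges overlapped at their ends. The log2 fold change was -0.53 ± 0.083 in KO against WT (adjusted p = 2.621e-05) and -0.53 ± 0.083 in BC CML against CP CML (adjusted p = 2.896e-05). BCR-ABL itself did not pass the test for Ccnd2, with -0.10 ± 0.083 in CP CML against WT (adjusted p = 0.3195) and -0.10 ± 0.083 in BC CML against KO (adjusted p = 0.3433). The summed level of 12 markers of long-term stem cells was also lower without miR-142, with 982 to 1672 CPM in WT and 679 to 868 in KO, and with 941 to 1094 CPM in CP CML against 704 to 798 in BC CML. Of these markers 7 fell and 1 rose in each of the miR-142 comparisons. Over all tested genes 36.3% were called in KO against WT and 38.0% in BC CML against CP CML. The part of the markers in the Ccnd2 result was not tested. In sorted bulk samples fewer cells of a type and less RNA per cell cannot be told apart.

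Ccnd1 encodes cyclin D1. In normal LSKs it rose without miR-142, and the test of the difference set this apart from leukemic LSKs. It stood at 40.3 to 60.2 CPM in WT with a median of 51.2, and at 64.8 to 133 CPM in the miR-142 KO group with a median of 89.2. CP CML libraries held 45.6 to 67.0 CPM with a median of 57.7 and BC CML libraries 47.5 to 73.6 with a median of 57.8. The KO libraries were all above the WT libraries and spread widely, with 3 of them between 64.8 and 73.6 CPM and 3 between 105 and 133, whereas the leukemic groups lay on top of each other. The rise in KO was 0.87 ± 0.154 on the log2 scale (adjusted p = 0.0001175), or 1.82-fold, and stayed between 0.74 and 0.96 with any 1 mouse left out. BC CML against CP CML gave 0.01 ± 0.154 (adjusted p = 0.9567). The difference between these effects was -0.85 ± 0.217 (adjusted p = 0.02662). Ccnd1 correspondingly fell in BC CML against KO, by 0.66 ± 0.153 (adjusted p = 0.001931), a comparison that shares its libraries with both miR-142 comparisons. On the genome Ccnd1 overlaps Oraov1 on the opposite strand over 818 bases, and whether counting used strand is not given in the sources used here. Oraov1 read at 20.5 to 25.9 CPM in WT and 19.7 to 22.8 CPM in KO.

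Ccnd3 encodes cyclin D3. Its levels ran from 103 to 151 CPM over the 24 libraries, and the group medians were 116 (WT), 124 (KO), 122 (CP CML) and 128 (BC CML). No comparison of the groups passed the test, with log2 fold changes of 0.12 ± 0.064 for KO against WT (adjusted p = 0.1536) and 0.11 ± 0.065 for BC CML against CP CML (adjusted p = 0.183). Ccnd3 overlaps Bysl on the opposite strand over 358 bases.

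Markers of other cell types differed as well, not all of them in both miR-142 comparisons. Of 8 mast cell and basophil markers 6 rose in KO against WT and 4 in BC CML against CP CML, and none fell. Over all tested genes 36.3% and 38.0% were called in these comparisons. The 10 B lineage and plasma cell markers summed to 71.6 to 981 CPM in WT and 27.8 to 47.7 in KO, and to 174 to 793 CPM in CP CML against 28.7 to 40.6 in BC CML, with Jchain carrying 80.9% of the sum. T and NK cell markers, led by Nkg7 with 89.7%, summed to 49.0 to 87.0 CPM in WT and 112 to 151 in KO, and megakaryocyte markers to 145 to 237 and 198 to 583 CPM. Of the mature neutrophil markers 6 of 10 rose and of the macrophage markers 5 of 8 fell in KO against WT, where WT mouse 3 alone reached a macrophage sum of 1035 CPM. The lineage-negative LSK gate is meant to remove mature cells of these kinds. The part of any that remained in the cyclin and Cdk6 results was not tested.

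Expressed per length, the mix of D-type cyclins differed between the genotypes. Cyclin D2 made up 71.0% ± 1.93 of the summed TPM of the 3 cyclins in WT LSKs (SD, n = 6) and 68.3% ± 2.33 in CP CML, but 56.2% ± 4.52 in miR-142 KO and 58.8% ± 1.53 in BC CML. Its lowest share in a miR-142+/+ library was 65.9%, above the highest share without miR-142 of 60.3%. In normal LSKs cyclin D1 took up most of the difference, going from 9.53% ± 1.22 in WT to 19.5% ± 4.11 in KO. In leukemic LSKs cyclin D1 went from 11.3% ± 0.765 to 14.1% ± 1.29 and cyclin D3 from 20.4% ± 2.6 to 27.2% ± 2.38. The sum itself was 390 ± 32.9 TPM in WT, 319 ± 34.0 in KO, 349.9 ± 30.9 in the CP CML group, with BC CML lowest at 262 ± 25.4. These sums carry no TMM scaling, so their differences between groups depend on that choice. Mean Ccnd3, for example, was 117 CPM in WT and 126 in BC CML, but 75.7 and 70.9 TPM. No test was made on these shares, which restate the levels of the single genes.

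**Figure D2:**
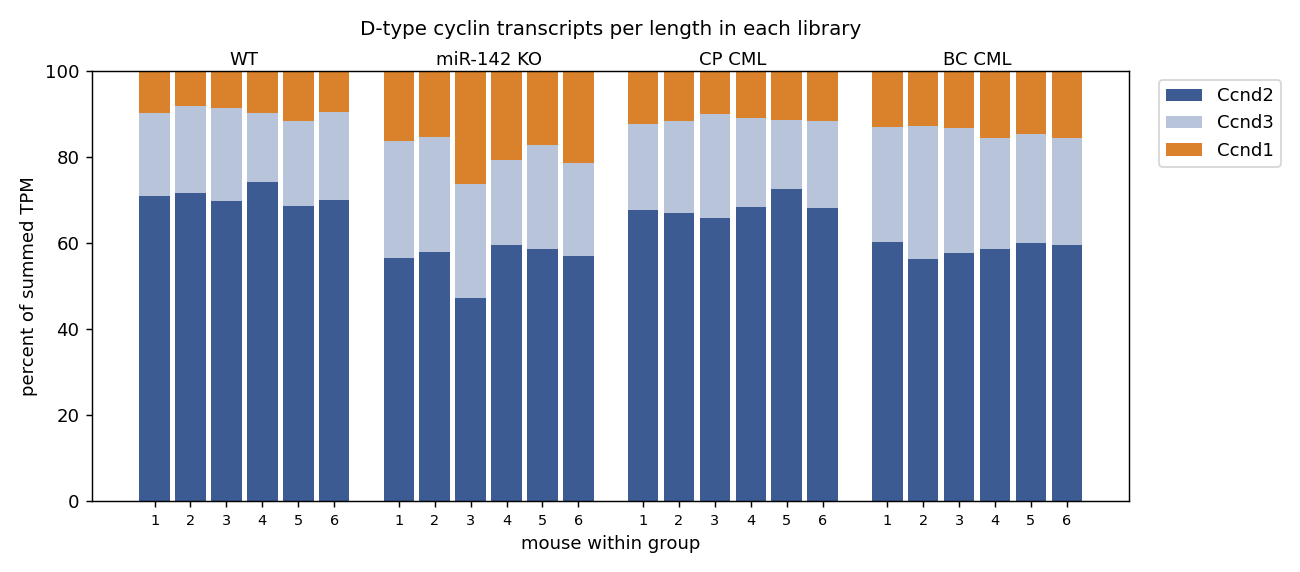
Share of Ccnd2, Ccnd3 and Ccnd1 in their summed TPM (vertical axis, percent) for each of the 24 libraries, ordered by group and mouse. Ccnd2 takes 65.9% or more in each miR-142+/+ library and 60.3% or less in each library without miR-142, and miR-142 KO mouse 3 has the largest Ccnd1 share, 26.3%.

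Cdk6, the kinase partner linked to exit from quiescence, showed a miR-142 effect that differed between normal and leukemic LSKs. WT libraries held 1296 to 1653 CPM with a median of 1434, and KO libraries 1411 to 1999 with a median of 1775. In CP CML the range was 1494 to 1713 CPM with a median of 1573, and in BC CML 1353 to 1642 with a median of 1413. All of these ranges overlap, with the KO group reaching highest. The log2 fold change was 0.25 ± 0.077 in KO against WT (adjusted p = 0.0121) and -0.13 ± 0.077 in BC CML against CP CML (adjusted p = 0.1855), and the difference of the effects was -0.38 ± 0.108 (adjusted p = 0.04486). That last call was lost with any of 13 of the 24 mice left out. The KO rise had an adjusted p of 0.06311 when only the 12 libraries compared entered the fit. Within the KO group the 3 females had 1411 to 1656 CPM and the 3 males 1895 to 1999, a gap between the sexes that was not tested within the group. BC CML was lower than KO by 0.26 ± 0.077 on the log2 scale (adjusted p = 0.009656). Across the 4 groups Ccnd1 and Cdk6 were thus the 2 genes of the 10 for which the miR-142 effects differed by the test, beside 3.99% of all tested genes.

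Cdk4, the other kinase, had the smallest spread of the 10 between WT mice and between BC CML mice, with coefficients of variation of 5.15% and 4.47%. WT libraries had 361 to 419 CPM with a median of 378, KO libraries 386 to 546 with a median of 403, CP CML libraries 351 to 443 with a median of 411 and BC CML libraries 441 to 493 with a median of 469. BC CML was higher than CP CML by 0.21 ± 0.069 on the log2 scale (adjusted p = 0.01965), with 1 CP CML mouse (442.9 CPM) reaching into the BC CML range. The call was lost without CP CML mouse 5 or 6 or BC CML mouse 2 or 4, and under upper quartile scaling. KO against WT gave 0.15 ± 0.069 (adjusted p = 0.09905). BC CML against KO gave 0.14 ± 0.069 (adjusted p = 0.1075), and 0.22 without KO mouse 3 (adjusted p = 0.001037). KO mouse 3 had the highest Cdk4 (546 CPM), Ccnd1 (133 CPM) and Ccnd3 (151 CPM) of all 24 mice. That mouse also had the highest summed level of 20 S phase and mitosis markers, 8103 CPM, where the other 23 libraries had at most 7278.

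In share of the summed TPM of both kinases, Cdk4 made up 69.4% ± 0.880 in WT, 67.6% ± 4.34 in KO, 68.6% ± 2.51 in CP CML, and most in BC CML with 73.5% ± 1.91.

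**Figure D3:**
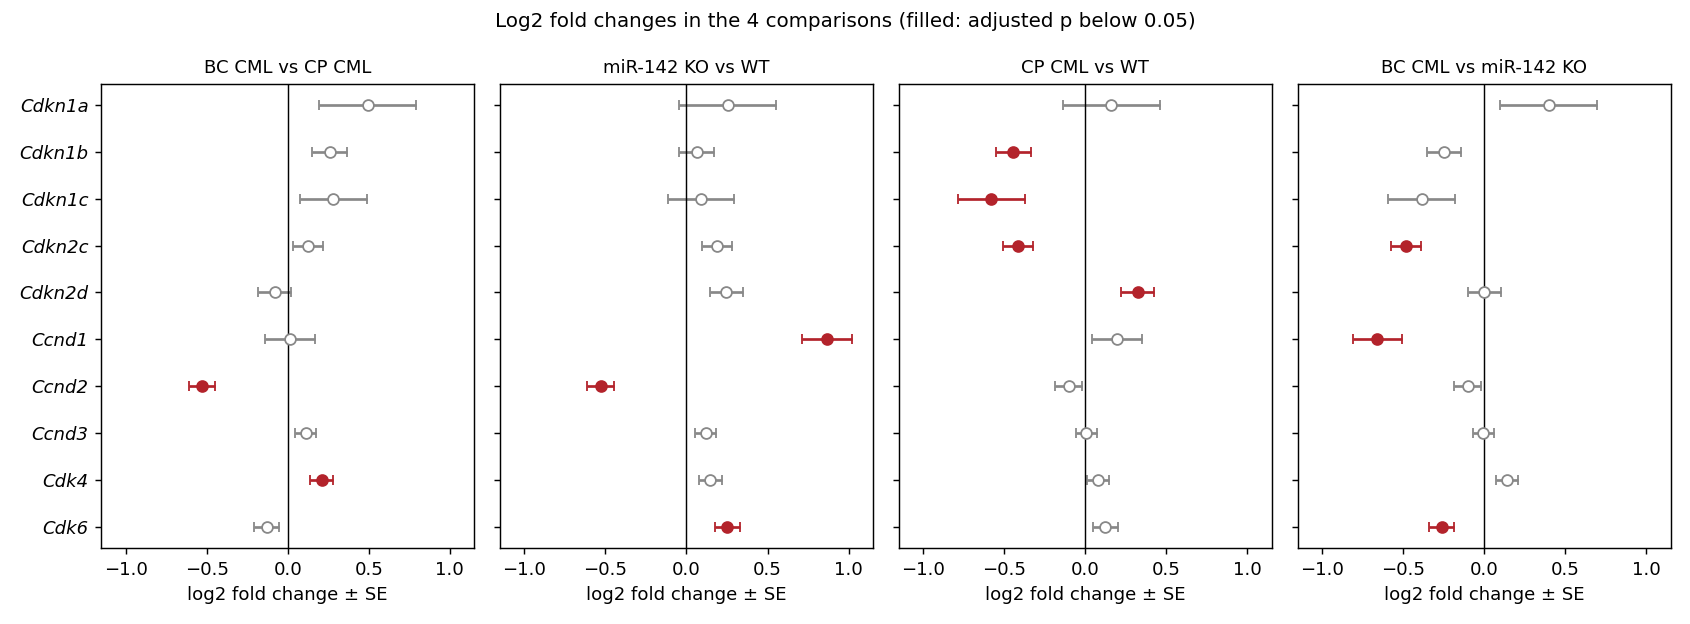
Log2 fold change with its SE (horizontal axis) for the 10 genes in the 4 comparisons, filled where the adjusted p is below 0.05. Ccnd2 stands at -0.53 in both miR-142 comparisons, and the inhibitors are called only in the comparisons of BCR-ABL with its control.

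The calls of inhibitors came in the comparisons of BCR-ABL mice with their controls, and whether an inhibitor's BCR-ABL effect exceeds its miR-142 effect was not tested. In CP CML against WT, Cdkn1b, Cdkn1c and Cdkn2c fell and Cdkn2d rose, 4 of 10 genes beside 45.4% of all tested genes, and Cdkn2c alone did not overlap, beside 21.8%. In BC CML against miR-142 KO, where BCR-ABL is added on the miR-142-/- background, Cdkn2c, Ccnd1 and Cdk6 fell, 3 of 10 genes beside 39.6% of all tested genes. None of the 10 was free of overlap there, beside 10.6% of all tested genes. No inhibitor passed in either miR-142 comparison. These pairs of groups share no library with each other, but each shares its groups with the miR-142 comparisons above.

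Cdkn2c encodes p18, an INK4 inhibitor. It read at 27.7 to 40.0 CPM in WT with a median of 32.7, and at 32.6 to 42.5 in KO with a median of 38.4. The leukemic libraries were lower, at 23.2 to 26.6 CPM in the CP CML group with a median of 24.4, and BC CML at 23.6 to 33.9 with a median of 26.3. All CP CML libraries were below all WT libraries, and 1 BC CML mouse (33.9 CPM) reached into the KO range. The log2 fold changes were -0.42 ± 0.094 in CP CML against WT (adjusted p = 0.001072) and -0.48 ± 0.093 in BC CML against KO (adjusted p = 0.0004268), and both calls held with any 1 mouse left out. Other marker lists moved in the same comparisons. Over all tested genes 45.4% were called in CP CML against WT and 39.6% in BC CML against KO. Of the 12 long-term stem cell markers 10 fell and 1 rose in the first comparison, and 8 fell and 1 rose in the second. Of the 6 erythroid markers tested 4 fell in each and none rose. In BC CML against KO 5 of 6 megakaryocyte markers fell and none rose. Of 10 mature neutrophil markers 6 fell and 2 rose there. Of 8 mast cell and basophil markers 6 rose in CP CML against WT and 5 in BC CML against KO, and none fell. Their part in the Cdkn2c result was not tested. The gene lies wholly within Eno1b on the opposite strand as annotated in the table, and Eno1b averaged 1.01 CPM.

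Cdkn1b encodes p27. Its range was 120.0 to 162 CPM in WT with a median of 138, and 109 to 162 in KO with a median of 150.2. CP CML libraries had 81.9 to 132 CPM with a median of 95.0 and BC CML libraries 109.6 to 137 with a median of 119. CP CML was the lowest group, with 4 of its 6 libraries below 96 CPM and the other 2 within the WT range. The fall in CP CML against WT was 0.44 ± 0.106 on the log2 scale (adjusted p = 0.001768). In that comparison 10 of 12 long-term stem cell markers fell and 1 rose, and 4 of 6 erythroid markers fell and none rose. Of 8 mast cell and basophil markers 6 rose and none fell, beside 45.4% of all tested genes called. The part of these lists in the Cdkn1b fall was not tested. BC CML against KO gave -0.25 ± 0.106 (adjusted p = 0.06658) and BC CML against CP CML 0.26 ± 0.106 (adjusted p = 0.05693). Both stood close to the threshold and were past it under some other settings.

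Cdkn1c encodes p57, the inhibitor most restricted to long-term stem cells. WT libraries held 2.78 to 5.99 CPM with a median of 4.49, KO libraries 3.41 to 7.47 with a median of 4.54, CP CML libraries 2.39 to 3.63 with a median of 3.0 and BC CML libraries 2.80 to 5.40 with a median of 3.46. The groups overlapped, with CP CML lowest. CP CML was lower than WT by 0.58 ± 0.208 on the log2 scale (adjusted p = 0.02712), a call that was lost without WT mouse 1 or 4 or CP CML mouse 1, 2 or 3. Of the 12 long-term stem cell markers 10 fell and 1 rose in the same comparison, with a median log2 fold change of -0.65 against -0.02 over all tested genes. Of 8 mast cell and basophil markers 6 rose there and none fell, beside 45.4% of all tested genes called. The part of both lists in the Cdkn1c result was not tested.

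Cdkn2d encodes p19, the second INK4 inhibitor of the set, and was the only one of the 5 inhibitors called higher in a leukemic group. It had 18.5 to 27.1 CPM in WT with a median of 23.6, 22.9 to 34.5 in KO with a median of 26.6, 25.6 to 33.9 in CP CML with a median of 28.0, and BC CML libraries had 24.6 to 30.7 with a median of 27.1. WT was the lowest group and the other 3 covered each other. The rise in CP CML against WT was 0.32 ± 0.102 (adjusted p = 0.0127). In that comparison 6 of 8 mast cell and basophil markers rose and none fell. Of 12 long-term stem cell markers 10 fell and 1 rose, beside 45.4% of all tested genes called. The part of these lists in the Cdkn2d rise was not tested. KO against WT gave 0.25 ± 0.102 (adjusted p = 0.0627) and BC CML against KO 0.00 ± 0.102 (adjusted p = 0.9995). Within the INK4 pair, Cdkn2d made up 54.3% ± 2.11 of the summed TPM in WT and 66.4% ± 3.24 in CP CML. Both genes entered this change, as mean Cdkn2d went from 58.6 to 68.5 TPM and mean Cdkn2c from 49.3 to 34.5 TPM. The mean share was also higher in BC CML (63.4%) than in KO (55.2%), where Cdkn2c fell and Cdkn2d did not pass the test. The shares themselves were not tested.

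Cdkn1a encodes p21 and varied more between mice than between groups. Its WT libraries ran from 11.9 to 59.6 CPM with a median of 40.0, the KO libraries from 27.3 to 69.8 with a median of 43.3, the CP CML libraries from 29.2 to 57.3 with a median of 42.6 and the BC CML libraries from 49.8 to 80.4 with a median of 52.5. BC CML had no library below 49.8 CPM, yet all groups overlapped. No comparison passed, with 0.49 ± 0.299 for BC CML against CP CML (adjusted p = 0.1987), though the adjusted p was 0.02391 when only those 12 libraries entered the fit. The coefficient of variation was 55.0% in WT, against 21.4% in BC CML and 5.15% for Cdk4 in WT. WT mice 1 and 4, with the lowest Cdkn1a (11.9 and 17.5 CPM) and the lowest Cdkn2d of the group, also had the highest sums of long-term stem cell markers (1515 and 1672 CPM) and the lowest sums of S phase and mitosis markers (5884 and 5828 CPM). In the KO group the 3 females had 50.3 to 69.8 CPM and the 3 males 27.3 to 36.4, which was not tested within the group.

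Across all 24 mice, with group as a covariate, 0 of the 10 genes differed between males and females by the edgeR test, where 0.651% of all tested genes did. At an unadjusted p below 0.05 there were 4 (Ccnd3, Cdk6, Cdkn1b and Ccnd2), and DESeq2 called 1, Ccnd3, lower in males by 0.13 on the log2 scale (adjusted p = 0.04248).

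The remaining INK4 genes, Cdkn2a (which encodes both p16 and p19Arf, not separable in these counts) and Cdkn2b (p15), were at the floor in normal LSKs and detected in every BCR-ABL library. Cdkn2a had 0 or 1 read per library in WT and KO, while CP CML libraries had 13 to 66 reads and BC CML libraries 46 to 90. Cdkn2b had at most 1 read in WT and 0 in KO, while CP CML libraries had 3 to 18 and BC CML libraries 13 to 32. Both were called higher in CP CML against WT and in BC CML against KO. They passed the filter on low counts only through BCR-ABL libraries, so these calls were close to fixed in advance and are no support. No fold is given because the normal libraries were at the floor. BC CML was above CP CML by 1.40 ± 0.371 on the log2 scale for Cdkn2a (adjusted p = 0.004558) and by 1.42 ± 0.423 for Cdkn2b (adjusted p = 0.01254). CP CML mouse 1 was the highest of its group for both, and without it the values were 2.11 ± 0.261 and 2.00 ± 0.360, a change chosen for testing after the counts were seen. The summed level of 8 mast cell and basophil markers was 272 to 821 CPM in WT and 489 to 3099 in KO, and CP CML libraries had 1791 to 3302 CPM and BC CML libraries 4742 to 10096. Of these markers 6 rose in CP CML against WT and 4 in BC CML against CP CML, and none fell. Over all tested genes 45.4% and 38.0% were called in these comparisons. Cpa3 made up 45.8% of that sum. The highest CP CML library was mouse 1 with 3302 CPM, and mouse 2 was close to it with 3249 CPM. Mouse 2 had 18 reads of Cdkn2a and 4 of Cdkn2b. The part of these cells in the Cdkn2a and Cdkn2b counts was not tested.

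**Figure D4:**
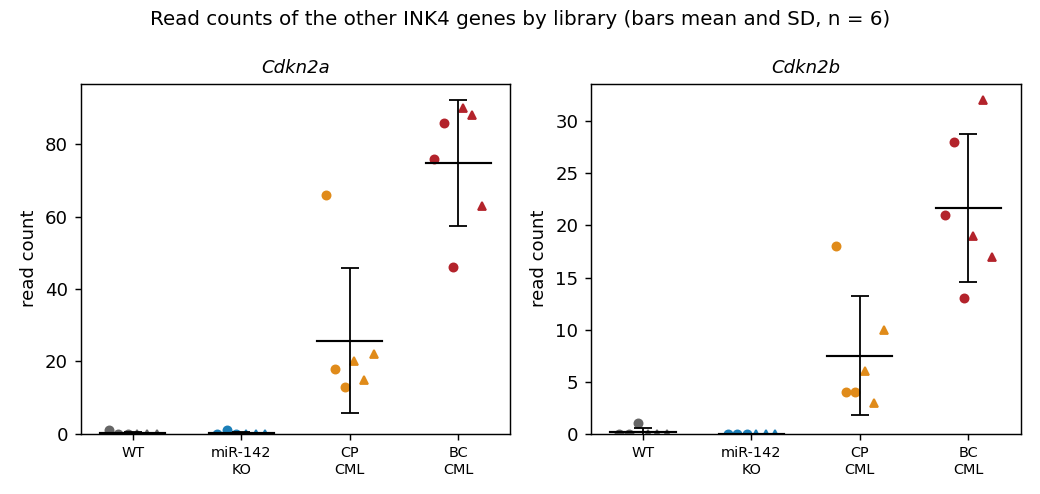
Read counts of Cdkn2a (left) and Cdkn2b (right) in the 24 libraries by group, with circles for females, triangles for males and the group mean and SD (n = 6). WT and miR-142 KO libraries have at most 1 read, and CP CML mouse 1 stands at 66 and 18 reads.

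Around these genes, the machinery that the D-type cyclins act on and that degrades their inhibitors was examined in lists made for this purpose. Beside each count stand the shares over all tested genes given above, 38.0% called in BC CML against CP CML and 36.3% in KO against WT, and no list was tested against them. Among 13 pocket proteins and E2F factors, 1 rose and 3 fell in BC CML against CP CML, with a median log2 fold change of -0.08 against 0.01 over all tested genes. Rb1, the retinoblastoma protein that Cdk4 and Cdk6 phosphorylate, rose by 0.34 ± 0.083 (adjusted p = 0.002502), and its relative Rbl2 fell by 0.24 ± 0.066 (adjusted p = 0.006264). E2f6, a repressor, and Tfdp2, an E2F partner, fell by 0.26 ± 0.067 and 0.30 ± 0.096. In KO against WT 3 rose and 1 fell, among them E2f8 with 0.48 ± 0.104 (adjusted p = 0.0008644) and Tfdp1 with 0.26 ± 0.074 (adjusted p = 0.007137).

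Of 9 genes for the turnover of p27 and cyclins, 3 rose and 1 fell in BC CML against CP CML, with a median of 0.14, so 4 of 9 were called where 38.0% of all tested genes were. Skp2, the subunit of the SCF ubiquitin ligase that recognizes phosphorylated p27, rose by 0.66 ± 0.089 (adjusted p = 3.851e-06), and its partners Skp1a and Rbx1 rose by 0.39 ± 0.056 and 0.39 ± 0.064. Ambra1, the ligase receptor for D-type cyclins, fell by 0.29 ± 0.045 (adjusted p = 2.864e-05). The split in KO against WT was again 3 and 1, beside 36.3% of all tested genes. Skp2 rose by 0.30 ± 0.088 (adjusted p = 0.01131), Fbxw7, which targets cyclin E, fell by 0.28 ± 0.064 (adjusted p = 0.001408), and Cks1b had 0.24 ± 0.093 (adjusted p = 0.05025).

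Of 9 genes for cyclin E, cyclin A, Cdk2 and the CDK-activating kinase, 2 rose and 1 fell in each miR-142 comparison. In BC CML against CP CML Ccne2 (cyclin E2) rose by 0.41 ± 0.120 (adjusted p = 0.009724) and Cdc37, a chaperone of Cdk4, by 0.22 ± 0.060, while Cdk2 fell by 0.16 ± 0.044 (adjusted p = 0.006127). Ccna2 had 0.20 ± 0.091 (adjusted p = 0.07919). In KO against WT Mnat1, a subunit of the CDK-activating kinase, rose by 0.24 ± 0.062 (adjusted p = 0.004863), and its kinase Cdk7 had -0.04 ± 0.043.

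Among p53 and 13 of its targets other than Cdkn1a, 7 rose and none fell in BC CML against CP CML (median 0.27), beside 38.0% of all tested genes called. In KO against WT 2 rose and 4 fell (median -0.07), beside 36.3%. In BC CML the cell death genes Perp, Bax and Eda2r rose by 1.65 ± 0.252, 0.32 ± 0.075 and 1.10 ± 0.281, and Ccng1 (cyclin G1) by 0.24 ± 0.068. In KO against WT Perp rose as well, by 2.28 ± 0.258, with Pmaip1 (Noxa) by 2.27 ± 0.414, while Phlda3 fell by 1.38 ± 0.197. For Perp the difference between the effects was -0.63 ± 0.353 (adjusted p = 0.3388). The difference of the miR-142 effects passed for 3 of the 14, beside 3.99% of all tested genes, with Eda2r at 2.64 and Phlda3 at 1.65. The third, Ccng1, had 0.42 (adjusted p = 0.01565).

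Of 12 transcription factors that act on these genes, 2 rose and 4 fell in BC CML against CP CML (median -0.23), and 3 rose and 2 fell in KO against WT (median 0.01), beside 38.0% and 36.3% of all tested genes called. Gfi1 rose by 0.62 ± 0.129 (adjusted p = 0.000605), and Foxo4 rose by 0.33 ± 0.075. Smad3 and Stat5b fell by 0.23 ± 0.060 and 0.15 ± 0.040. In KO against WT Stat5a rose by 0.25 ± 0.050 (adjusted p = 0.0004346) and Foxo3 fell by 0.34 ± 0.086 (adjusted p = 0.003422). Among 20 S phase and mitosis markers 5 rose and 1 fell in BC CML against CP CML, a smaller share than the 38.0% of all tested genes. The mitotic genes Ccnb2, Ccnb1 and Birc5 rose by 0.33 ± 0.095, 0.29 ± 0.112 and 0.26 ± 0.086, and the origin licensing factor Cdt1 fell by 0.21 ± 0.061. In KO against WT 2 rose, Aurkb with 0.36 ± 0.093 and Cdk1 with 0.23 ± 0.090, and none fell.

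Finally, the genes most like each of the 10 were named by Pearson's r of log2 CPM over the 24 libraries, among 11752 candidates, as a description. For Cdk4 they were Banf1 (r = 0.95), Actl6a (r = 0.94) and Psmc3ip (r = 0.94), and r for Banf1 was 0.95 after removal of the group means. Cdkn1a was closest to Atf3 (r = 0.90, and 0.91 without group means), an immediate early stress gene, then to Ubl5 (0.87) and Gla (0.86). Ccnd2 was closest to Dync2h1 (r = 0.93) and Gas6 (0.92), but within groups these were 0.61 and 0.64. Cdkn2c was closest to Bcl2 (r = 0.90), Zdhhc14 (0.88) and Parvb (0.88), which were 0.70, 0.61 and 0.59 without group means. Cdkn1b led to AI504432 (0.90), Kbtbd2 (0.89) and Zbtb10 (0.88), and Cdkn2d to Dyrk3 (0.84), Osm (0.83) and Tnfaip3 (0.79). Cdkn1c was closest to Jak1 (0.79), Mecom (0.76) and Entpd5 (0.75), and Ccnd3 to Usp4 (0.80), Pigq (0.77) and Gsk3a (0.77). The genes closest to Cdk6 were Gzmm (0.84), Gna13 (0.69) and Zfand4 (0.67), and to Ccnd1 Irak1 (0.75), Heatr5a (0.75) and Ubr3 (0.74). Without group means the Ccnd1 values were 0.50, 0.51 and 0.37. Among the 10 genes themselves the highest r was between Cdkn1a and Cdkn2d (0.76, and 0.81 without group means), and the lowest between Ccnd2 and Cdk4 (-0.65, and -0.27 without group means). All 24 points of each r share the same libraries and scaling.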

How the data were processed

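Total RNA from sorted LSKs was made into mRNA libraries (Kapa mRNA HyperPrep) and sequenced as paired reads on a NovaSeq6000. The authors trimmed reads (Trimmomatic, FASTP), mapped them to mm10 with STAR 2.6.0 and deposited raw read counts per gene from HTSeq-count 0.11.1, with a gene length in kb that was used here for TPM. The annotation and strand setting are not given in the sources used here. The study's methods give another number of mice per group than the labels, and the labels were followed. Nothing pairs mice between groups, and pedigree is not given.

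Counts of all 24 libraries entered 1 edgeR 4.0.16 fit (R 4.3.3): filterByExpr, TMM, quasi-likelihood F test, Benjamini-Hochberg over 13520 genes, threshold 0.05. The SE is the absolute log2 fold change divided by the square root of F. CPM use TMM-scaled library sizes and TPM use plain ones. The script was tested on simulated data. Alternatives were other scalings (RLE, upper quartile), edgeR's likelihood ratio test, DESeq2 1.42.0, other filters, sex as a covariate, only the 12 libraries compared, and each mouse left out.

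The genes and lists were chosen with earlier results of these data known, so the lists are no independent support. Each of the 10 genes was named, with the 3 genes most like it, of which 1 is not reported here. Of each pathway list, up to 4 genes with the smallest p in BC CML against CP CML and up to 2 more in KO against WT were named, beside genes named for a count, which were picked after their values were seen. Of the cell type lists only sums and counts are given, for those that moved with a result. MicroRNA sequences are from RefSeq (GRCm38.p6).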

Additional observations from a re-analysis of the deposited data

Results flagged for a closer look

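In 4 of the 40 sets of 6 mice (10 genes in 4 groups) the mouse at 1 end stood apart from the others by Dixon's criterion, where chance gives about 1 in 20. Cdkn1b in miR-142 KO mouse 3 was 109.4 CPM with the next value at 144. Cdk4 in the same mouse was 545.6 CPM with the next at 409. Cdk4 in WT mouse 6 was 419 CPM with the next at 379.8, and Cdkn2c in BC CML mouse 3 was 33.9 CPM with the next at 27.4. The miR-142 effect differed between leukemic and normal LSKs for Ccnd1, by -0.85 on the log2 scale (adjusted p = 0.02662), and for Cdk6, by -0.38 (adjusted p = 0.04486).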

How the results depend on the processing

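Of the 14 calls of the 10 genes, 10 held under every alternative and with every mouse left out, and none changed sign. No paired analysis was possible because the labels give each mouse its own number. The number called in BC CML against CP CML was 1 with upper quartile scaling and 4 with only 12 libraries, the number with different miR-142 effects was 1 without a filter, and DESeq2 called 1 between the sexes; with 1 mouse left out the counts ran from 1 to 3 (BC CML against CP CML), 3 to 5 (KO against WT), 3 to 5 (BC CML against KO) and 1 to 2 (difference of effects).

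Signs changed only for log2 values that were not called, the largest of them Cdkn1a in CP CML against WT (0.16, and -0.024 without WT mouse 1). Cdkn2d in BC CML against KO (0.00021) was -0.00671 with RLE, -0.0322 with upper quartile, -0.00674 with DESeq2, -0.00615 without a filter, -0.00932 at 1 CPM in 6 libraries and -0.00758 with 12 libraries. The Ccnd2 difference was -0.00825, -0.00823, -0.00128 and -0.0205 with RLE, DESeq2, no filter and 1 CPM in 6. Ccnd1 in BC CML against CP CML was -0.0330, -0.000360, -0.00745 and -0.00312 with upper quartile, DESeq2, 1 CPM in 6 and 12 libraries, and Ccnd3 in CP CML against WT was -0.0338 with upper quartile. With 1 mouse left out the ranges were -0.081 to 0.051 (Ccnd1, BC CML against CP CML), -0.072 to 0.049 (Ccnd2 difference), -0.035 to 0.042 (Ccnd3, BC CML against KO), -0.018 to 0.048 (Ccnd3, CP CML against WT), -0.065 to 0.023 (Ccnd3 difference), -0.024 to 0.36 (Cdkn1a, CP CML against WT), -0.12 to 0.10 (Cdkn1a, sex), -0.068 to 0.18 (Cdkn1c, KO against WT) and -0.052 to 0.068 (Cdkn2d, BC CML against KO). The cause was not tested.

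Upper quartile scaling moved the share of calls that rose over all genes from 53.7% to 42.4% in BC CML against CP CML and from 54.7% to 42.0% in KO against WT, and the filter of 1 CPM in 6 libraries moved it from 47.9% to 37.8% for the difference of effects.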
